A study of Mus musculus with 6 samples.

Results

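Megf10, Megf6, Megf9 and Megf11 are the mouse genes named for multiple EGF-like domains that are described here. They were taken by gene name from the deposited table of 21627 genes, in which each of the 4 had a single row, and all 4 passed the filter on low counts that left 14196 genes for testing. Megf10 was chosen by its measured values, since its read counts were among those that separated Ezh2 knockout from wild-type organoids most cleanly. Its difference is therefore given as a description with no test. The other 3 were taken for their family name. The RNA came from organoids, gland-like cultures of primary mammary epithelium, taken from FVB/N females of the MIC line aged 8 to 12 weeks. The Ezh2 knockout (KO) organoids carried conditional Ezh2 alleles, and the Ezh2 wild-type (WT) organoids carried intact ones. Each genotype gave 3 libraries. All 6 cultures first formed acini for 6 days in medium with 10 ng/ml EGF and then received 2 µg/ml doxycycline for 8 days, which in this line induces the polyomavirus middle T oncogene and deletes conditional Ezh2 alleles, so both groups received the inducer of the oncogene and no untreated culture was compared. Neither promoter nor recombinase is named in the labels. Whether a replicate was its own mouse or culture is not stated there either, so each p-value covers the spread among these libraries only, and that spread may be technical.

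All 4 genes are protein coding, and their positions are those of the mm10 build as deposited. Megf10 (ENSMUSG00000024593) lies on chromosome 18 from 57133090 to 57297467 on the plus strand, Megf6 (ENSMUSG00000057751) on chromosome 4 from 154170730 to 154275713 on the plus strand, Megf9 (ENSMUSG00000039270) on chromosome 4 from 70427065 to 70534995 on the minus strand, and Megf11 (ENSMUSG00000036466) on chromosome 9 from 64385626 to 64709205 on the plus strand. Megf10 and Megf11 have the same number of exons, up to 25 in a coding transcript of the GENCODE M21 annotation, against 37 in Megf6 and 6 in Megf9. No exon of any of the 4 overlapped an exon of another annotated gene, on either strand.

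An EGF-like domain is a short fold held together by disulfide bonds, named after epidermal growth factor, and a protein that carries it in tandem copies is usually an adhesion or recognition molecule rather than a growth factor. MEGF10 and MEGF11 are single-pass membrane receptors related to CED-1 of Caenorhabditis elegans and Draper of Drosophila, which recognise dying cells before they are engulfed. In mice MEGF10 helps astrocytes clear cell debris, with the complement protein C1q as one of its ligands, it is expressed by muscle satellite cells, and together with MEGF11 it spaces retinal neurons. MEGF6 is a secreted protein of EGF-like repeats, and MEGF9 is a membrane protein with laminin-type EGF-like domains, first described in the nervous system.

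RefSeq start sites on GRCm38.p6 were matched for Megf6 and Megf9. Their upstream windows are shown because Ezh2 belongs to a Polycomb complex, which in mammals is known to favour promoters rich in CpG, a C followed by a G. Each window is the 250 bases before the RefSeq start, 5′ to 3′ on the gene's strand, with every CG in capitals. The RefSeq start of Megf9 lies inside the gene as deposited, which ends at 70534995, so part of that window lies within the gene.
Megf6 (chr4:154170463-154170712, plus strand): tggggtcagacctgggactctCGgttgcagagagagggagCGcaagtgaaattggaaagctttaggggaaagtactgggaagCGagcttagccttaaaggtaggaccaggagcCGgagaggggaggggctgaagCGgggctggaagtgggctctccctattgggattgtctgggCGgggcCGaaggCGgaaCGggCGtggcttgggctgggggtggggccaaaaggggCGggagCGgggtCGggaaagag
Megf9 (chr4:70534929-70535178, minus strand): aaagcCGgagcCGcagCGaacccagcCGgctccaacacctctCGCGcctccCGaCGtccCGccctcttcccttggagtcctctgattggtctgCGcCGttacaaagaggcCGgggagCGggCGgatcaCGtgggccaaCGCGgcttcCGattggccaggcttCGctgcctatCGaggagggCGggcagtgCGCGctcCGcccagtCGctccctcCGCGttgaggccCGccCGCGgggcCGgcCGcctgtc

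The Megf6 window held 13 CGs, a count met or exceeded by 31.5% of 32851 RefSeq windows of the same length, and the Megf9 window held 32, met or exceeded by 4.6%. The motif CG reads the same on both strands, and the median over all windows was 6. Both windows were therefore above the median in CG, and Megf9 was the denser of the pair. Whether CG counts go with the difference between genotypes was not tested. No histone mark was measured in these libraries, so the counts describe the sequence only.

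Totals ran from 27667054 to 29203634 counts in the KO libraries and from 18292722 to 23437024 in the WT libraries, so the KO libraries were the deeper ones throughout. Ezh2 itself stood at 7.13, 7.28 and 5.84 CPM (read counts scaled to library size with TMM factors) in KO organoids and at 19.3, 22.6 and 14.7 CPM in WT organoids, 35.8% of the WT mean, which matches the labels. A two-sided exact permutation test of Ezh2 gave p = 0.1, the smallest that 3 libraries against 3 can give. With edgeR's quasi-likelihood test and Benjamini-Hochberg adjustment, 0 of 14196 genes (0%) passed an adjusted p of 0.05, while 2811 (19.8%) had an unadjusted p under 0.05, 8.93% higher and 10.9% lower in KO. DESeq2's Wald test called 1046 of 13644 genes (7.67%), 4.13% higher and 3.53% lower in KO. All KO libraries lay above all WT libraries for 14.2% of genes and below them for 14.6%.

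Megf10, the engulfment receptor, was 2.70 times as abundant in KO as in WT organoids, and the KO libraries held it at nearly one level. That evenness was not particular to Megf10, since over all genes tested the KO libraries were closer to each other than the WT libraries were. The chi-square per gene, a measure of difference, was 14.3 to 22.6 between KO libraries and 76.4 to 146 between WT libraries. KO replicates 1 to 3 had 961, 893 and 896 counts, or 33.4, 30.4 and 32.9 CPM. WT replicates 1 to 3 had 228, 272 and 230 counts, or 9.85, 13.1 and 12.9 CPM. The groups were far apart: the lowest KO library stood at 2.31 times the highest WT library.

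Megf10 averaged 32.2 ± 1.63 CPM in KO organoids, against 11.9 ± 1.82 CPM in WT ones (SD, n = 3 each). The SD was 5.07% of the mean in KO, where counting error alone would give about 3.30%, and 15.2% in WT, where it would give about 6.41%. The edgeR fit put the log2 fold change at 1.43 ± 0.14 (SE; 95% interval 1.09 to 1.77). Among the 14196 genes tested, 56 had a larger positive fold change. Its ratio of fold change to SE, 9.90, was rank 1 in edgeR, ahead of the ribosomal protein gene Rps29 at 9.68, which has pseudogene copies and went the other way (log2 fold change −1.49 ± 0.15). By p-value Megf10 was rank 3 in DESeq2 and rank 2 in the authors' deposited table, which gave it a log2 fold change of 1.32, smaller than the 1.43 of the edgeR fit. These ranks restate how Megf10 was chosen.

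**Figure D1:**
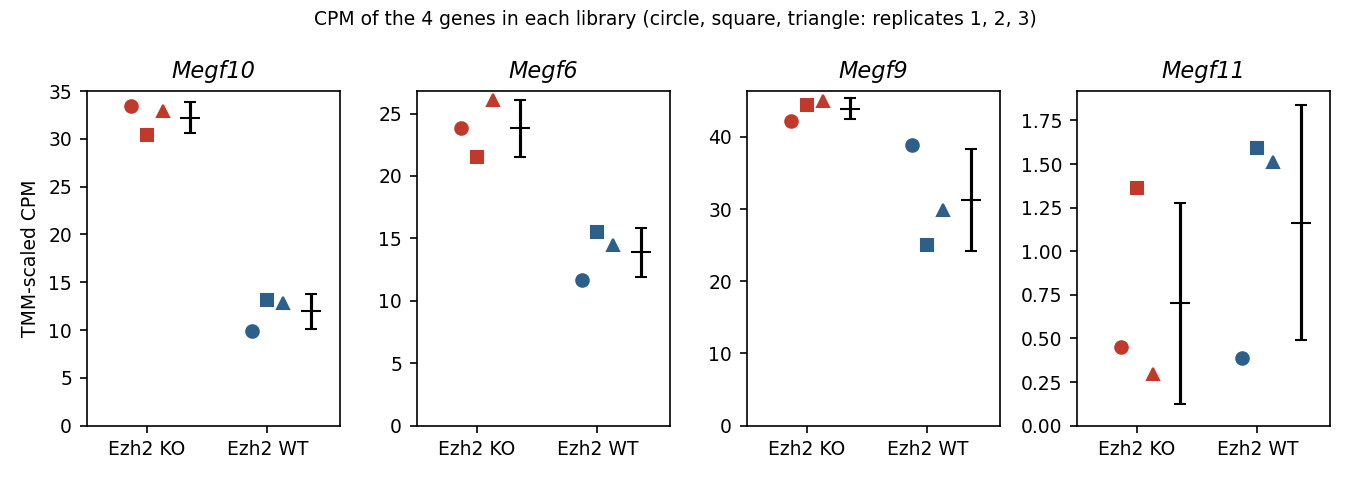
TMM-scaled CPM of Megf10, Megf6, Megf9 and Megf11 in each library, with Ezh2 KO left of Ezh2 WT and a separate axis from 0 for each gene; bars are mean ± SD over 3 libraries. The KO points lie above the WT points for Megf10 (30.4 to 33.4 against 9.85 to 13.1 CPM), Megf6 and Megf9, and the groups overlap for Megf11.

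Megf6, which encodes the secreted family member, was also higher in KO organoids, by less than Megf10. It had 686, 633 and 711 counts in KO replicates 1 to 3, or 23.9, 21.5 and 26.1 CPM. In WT replicates 1 to 3 it had 270, 321 and 259 counts, or 11.7, 15.5 and 14.5 CPM. Every KO library was above every WT library, as for 14.2% of all genes tested, the lowest of them at 1.39 times the highest WT library.

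Megf6 averaged 23.8 ± 2.29 CPM in KO organoids, against 13.9 ± 1.98 CPM in WT ones (SD, n = 3 each), a ratio of 1.72. In log2 units the difference was 0.78 ± 0.15 (SE; 95% interval 0.42 to 1.14). The adjusted p was 0.0867 in edgeR, which did not pass, and 0.00101 in DESeq2, which did. The authors' deposited table gave an adjusted p of 0.00149 with a log2 fold change of 0.72. Without WT replicate 2, edgeR's adjusted p for Megf6 was 0.0491, in a fit that called 100 genes higher and 116 lower in KO. With any other library left out it ran from 0.0638 (WT replicate 1) to 0.407 (KO replicate 1) and did not pass.

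Megf9 was the most abundant of the 4 in every library, and its difference between genotypes was smaller and less even. KO replicates 1 to 3 held 42.2, 44.5 and 45.0 CPM, and WT replicates 1 to 3 held 38.9, 25.0 and 29.9 CPM. All KO libraries lay above all WT libraries, as for 14.2% of all genes tested. WT replicate 1 came close to the KO libraries, with the lowest KO library 1.09 times as high. Megf9 averaged 43.9 ± 1.48 CPM in KO organoids, against 31.3 ± 7.03 CPM in WT ones (SD, n = 3 each).

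The log2 fold change of Megf9 was 0.49 ± 0.17 (SE; 95% interval 0.10 to 0.88), with adjusted p-values of 0.183 (edgeR) and 0.102 (DESeq2), so it passed neither test. As over all genes tested, the KO libraries were the more alike group for this gene. They agreed within counting error (an SD of 3.36% of the mean, against about 2.83% from counting), whereas the WT libraries did not (22.5% against about 3.92%). WT replicate 1 was thus the highest WT library for Megf9 and the lowest for Megf10 and Megf6. Without that library the log2 fold changes were 0.69 for Megf9, 1.32 for Megf10 and 0.68 for Megf6.

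Megf11, the closest relative of Megf10, was barely detected. It had 13, 40 and 8 counts in KO replicates 1 to 3, or 0.452, 1.36 and 0.294 CPM. In WT replicates 1 to 3 it had 9, 33 and 27 counts, or 0.389, 1.59 and 1.51 CPM. The groups overlapped, and replicate 2 was the highest library of either genotype.

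The log2 fold change of Megf11 was −0.71 ± 0.73 (SE; 95% interval −2.41 to 1.00), with adjusted p-values of 0.621 (edgeR) and 0.671 (DESeq2). The interval allows a change of either sign. The SD was 82.0% of the mean in KO, where counting error alone would give about 22.2%, and 57.8% in WT, where it would give about 20.9%, so the libraries differed by more than counting error. It was −1.61 without KO replicate 2 and −0.35 without KO replicate 3, so single libraries set its value.

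Per length, in FPKM (counts per length and per library total, as deposited), the order of the 4 genes differed between the genotypes at one place. In KO organoids Megf9 averaged 5.53 ± 0.159, Megf10 4.28 ± 0.200, Megf6 3.47 ± 0.295 and Megf11 0.105 ± 0.0871 FPKM (SD, n = 3), and no neighbours in this order overlapped. In WT organoids Megf9 averaged 3.94 ± 0.814, Megf6 2.03 ± 0.333, Megf10 1.59 ± 0.268 and Megf11 0.175 ± 0.103 FPKM (SD, n = 3), and the ranges of Megf6 (1.68 to 2.34) and Megf10 (1.29 to 1.81) overlapped. Within each library, though, the order held: Megf10 was above Megf6 in all 3 KO libraries and below it in all 3 WT libraries.

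The ratio of Megf10 to Megf6 was 1.28, 1.29 and 1.15 in KO replicates 1 to 3 and 0.770, 0.773 and 0.810 in WT replicates 1 to 3. The ratio of Megf10 to Megf9 was 0.835, 0.720 and 0.771 in KO and 0.267, 0.553 and 0.454 in WT. Summed over the 4 genes, the level per length was 13.4, 13.1 and 13.7 FPKM in KO and 7.88, 7.68 and 7.65 FPKM in WT, a total that varied little within either genotype. Megf10 made up 32.0 ± 1.23% of it in KO and 20.6 ± 3.74% in WT (SD, n = 3 each), Megf9 made up 41.3 ± 1.66% and 50.8 ± 9.68%, and Megf6 held about the same share in both, 25.9 ± 1.63% in KO and 26.3 ± 4.64% in WT. Since Megf10 was chosen for its difference, these shares describe the libraries and test nothing.

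**Figure D2:**
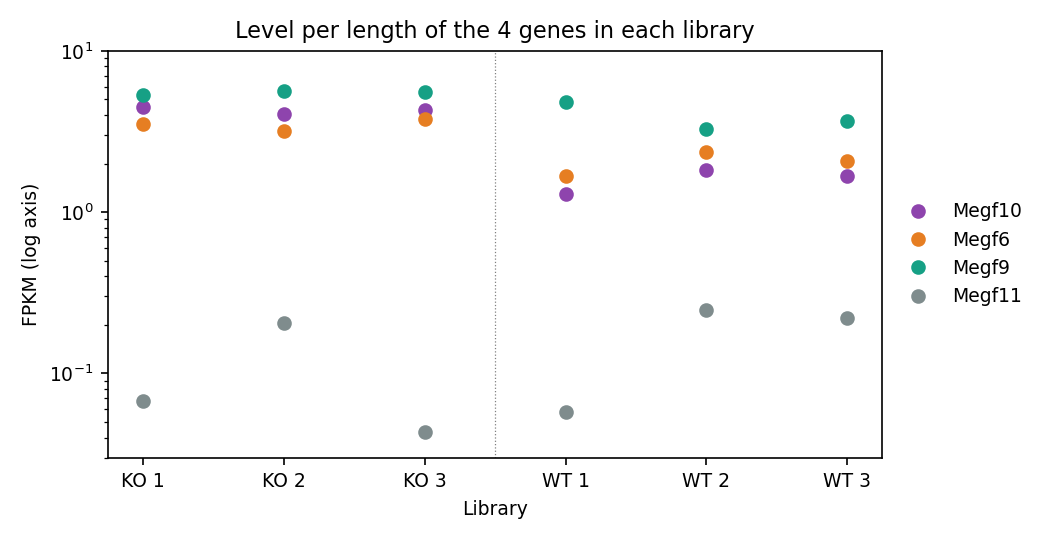
FPKM of the 4 genes, on a log axis, in each of 3 Ezh2 KO and 3 Ezh2 WT libraries. Megf9 is highest in all 6 libraries, Megf10 lies above Megf6 in the KO libraries and below it in the WT libraries, and Megf11 stays under 0.25 FPKM.

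The genes whose pattern over the 6 libraries was nearest to that of Megf10 were Etv1, an ETS transcription factor gene, Cldn6, of a tight junction claudin, and Lama3, of a laminin chain of epithelial basement membrane. Likeness was the root mean square difference between log2(CPM + 0.5) profiles, each centred on its own mean, among 10250 other protein-coding genes with a mean of at least 5 CPM. Genes with provisional symbols of the Gm-number or Rik type were left out. The difference was 0.10 for Etv1, 0.14 for Cldn6 and 0.15 for Lama3, against a median of 0.74 over all genes compared. Clic6 (0.19), Sfrp1, a secreted Wnt antagonist (0.22), and Orm2, which has close paralogs (0.23), came next. Etv1 had 8.55, 7.01 and 8.67 CPM in KO replicates 1 to 3 and 2.42, 2.94 and 2.63 CPM in WT replicates 1 to 3. Megf6 was at 0.33, rank 35 of 10250, and Megf9 at 0.55, rank 839, while Megf11 was too low to be ranked. All KO libraries lay above all WT libraries for Megf6 and Megf9, as for 14.2% of all genes tested, but not for Megf11. The likeness measure includes the difference by which Megf10 was chosen. That the 6 nearest genes also separate the genotypes therefore restates this choice.

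**Figure D3:**
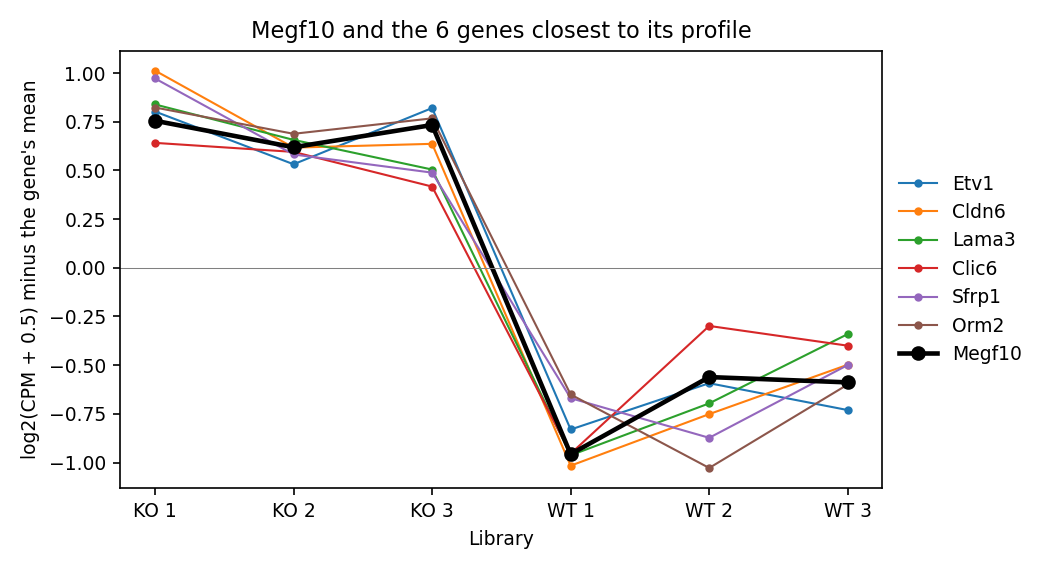
log2(CPM + 0.5) minus the gene's own mean in each library for Megf10 (black) and the 6 genes with the smallest root mean square difference from it; lines join the libraries of one gene. Etv1 lies nearest, at 0.10 log2 units, and all 7 genes are above 0 in the KO libraries and below 0 in the WT libraries.

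Of 12 genes that carry or once carried a MEGF number, Celsr2 and Lrp4 were higher in KO organoids in DESeq2 beside Megf10 and Megf6. Celsr2, an atypical cadherin of planar cell polarity, had 319.0, 324.1 and 318.1 CPM in KO organoids, against 176.8, 156.1 and 227.4 CPM in WT replicates 1 to 3. Its log2 fold change was 0.78 ± 0.15 (SE), the size found for Megf6, with an adjusted p of 0.0867 in edgeR. Lrp4, the agrin receptor of the neuromuscular junction, which also binds Wnt antagonists, averaged 15.3 ± 1.37 CPM in KO organoids, against 8.87 ± 2.92 CPM in WT ones (SD, n = 3 each), a log2 fold change of 0.79 ± 0.24 (SE, adjusted p 0.155 in edgeR and 0.0409 in DESeq2).

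All 12 were tested, and leaving aside the 4 genes named Megf10, Megf6, Megf9 and Megf11 there were 8. Of these 8, 0 passed in edgeR and 2 in DESeq2, both higher in KO, where 4.13% of all genes were. The KO libraries lay above all WT libraries for 3 of the 8 (14.2% of all genes) and below them for 0 (14.6%). Their median log2 fold change was 0.17, against −0.05 over all genes tested. The median over all 12 was 0.38, and ran from 0.23 (WT replicate 2 left out) to 0.66 (WT replicate 3 left out). These values include Megf10, which was chosen for its difference, and no such range was computed for the 8. The lowest was Slit1, a Robo ligand, at 4.28, 5.30 and 10.4 CPM in KO organoids, against 47.4, 3.38 and 17.1 CPM in WT, where replicate 1 alone held most of the counts. Pear1, a platelet receptor related in structure to Megf10 and Megf11, averaged 12.3 ± 0.667 CPM in KO organoids, against 13.8 ± 5.31 CPM in WT organoids (log2 fold change −0.16 ± 0.26, adjusted p 0.760 in edgeR).

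**Figure D4:**
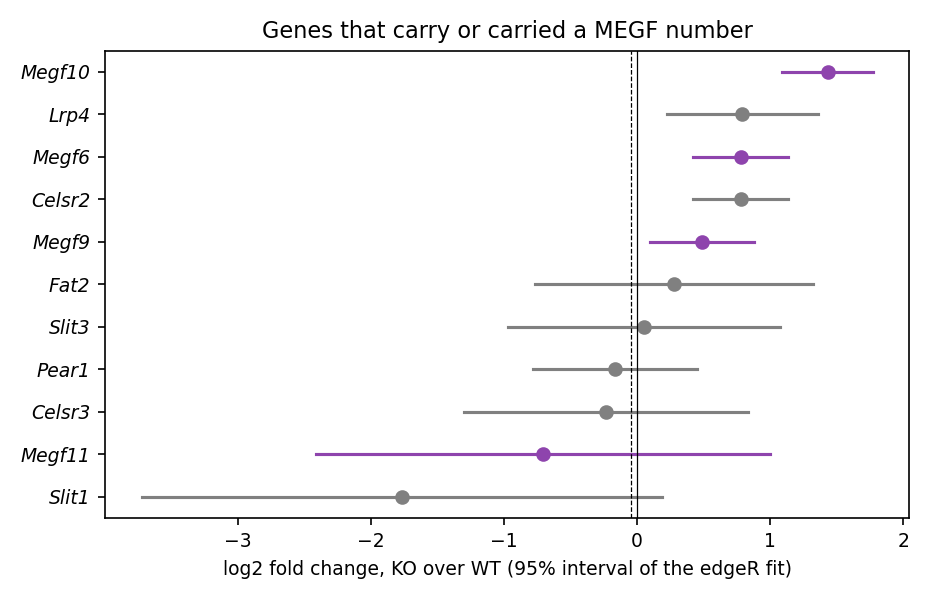
log2 fold change, KO over WT, with the 95% interval of the edgeR fit for 11 genes that carry or carried a MEGF number; purple marks the 4 members, the dashed line the median of all genes tested (−0.05). Megf10 lies at 1.43, above Lrp4, Megf6 and Celsr2 at 0.78 to 0.79, while Slit1 and Megf11 have wide intervals that include 0.

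Among the other receptors for dying cells, Tyro3 was the gene besides Megf10 that passed in DESeq2. Tyro3, a TAM receptor kinase that binds phosphatidylserine through bridging proteins, had 53.0, 46.5 and 52.9 CPM in KO organoids, against 37.0, 32.6 and 41.3 CPM in WT replicates 1 to 3. Its log2 fold change was 0.46 ± 0.12 (SE), with an adjusted p of 0.129 in edgeR and 0.0340 in DESeq2. Its relatives Axl (0.16 ± 0.24) and Mertk (−0.83 ± 0.55) passed in neither. The integrin chain gene Itgb3 (0.41 ± 0.16) and the scavenger receptor gene Scarf1 (−1.69 ± 0.71) were next by p-value, and both missed the threshold, with an adjusted p of 0.238 and 0.250 in edgeR.

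Leaving aside Megf10 and Megf11, 12 of 16 listed engulfment receptors could be tested. Of these 12, 0 passed in edgeR, and 1 was higher and 0 lower in DESeq2 (4.13% and 3.53% of all genes). Their fold changes went both ways, 6 positive and 6 negative, with a median of 0.03. The KO libraries lay above all WT libraries for 3 of the 12 (14.2% of all genes) and below them for 0 (14.6%). With Megf10 and Megf11 the median was 0.03 too, or 0.33 without WT replicate 3. Of the 4 receptors lowest in fold change, Stab1, Scarf1, Mertk and Cd36, all peaked in WT replicate 2. Stab1 had 11.7, 29.4 and 16.2 CPM in KO, against 8.90, 151.8 and 31.5 CPM in WT replicates 1 to 3. Markers of immune cells, 7 of 8 of them listed in the table, summed to 156 to 231 CPM in KO and to 143, 1518 and 433 CPM in WT replicates 1 to 3, so they peaked in the same library. All 7 had a negative fold change, with a median of −1.53, or −0.61 without WT replicate 2. Of them Itgam (−1.45 ± 0.37, adjusted p 0.00567) and Tyrobp (−1.99 ± 0.75, adjusted p 0.0409) were lower in KO in DESeq2, and 0 passed in edgeR. Their part in those receptor values was not tested.

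The bridging proteins and adaptors of the same pathway were led by Gas6, which links phosphatidylserine to the TAM receptors. Gas6 had 886.6, 747.4 and 735.0 CPM in KO organoids, against 334.0, 529.9 and 614.6 CPM in WT replicates 1 to 3, with no overlap, as for 14.2% of all genes tested in this direction. Its log2 fold change was 0.68 ± 0.23 (SE), with an adjusted p of 0.181 in edgeR and 0.0471 in DESeq2. Abca7, a lipid transporter related to the worm engulfment gene ced-7, was at 0.54 ± 0.16, with an adjusted p of 0.152 in edgeR and 0.0513 in DESeq2. Gulp1, the adaptor that in worms (as CED-6) acts downstream of CED-1, averaged 5.51 ± 0.409 CPM in KO organoids, against 6.47 ± 1.78 CPM in WT ones, and was at −0.23 ± 0.24 (adjusted p 0.635 in edgeR). The bridging protein gene Thbs1 (0.50 ± 0.19) and the CED-5 relative Dock1 (0.38 ± 0.17) passed in neither tool.

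Of 19 bridging proteins and adaptors, all tested, 0 passed in edgeR, and 1 was higher and 0 lower in DESeq2 (4.13% and 3.53% of all genes). The KO libraries lay above all WT libraries for 5 of the 19 (14.2% of all genes) and below them for 0 (14.6%). The median was 0.02, or 0.17 without WT replicate 2. The genes of the C1q chains, among them the MEGF10 ligand, were lowest of the list: C1qa had 3.96, 13.5 and 8.15 CPM in KO organoids, against 2.55, 99.5 and 14.3 CPM in WT replicates 1 to 3. WT replicate 2 was again the highest, as it was for the immune cell markers.

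**Figure D5:**
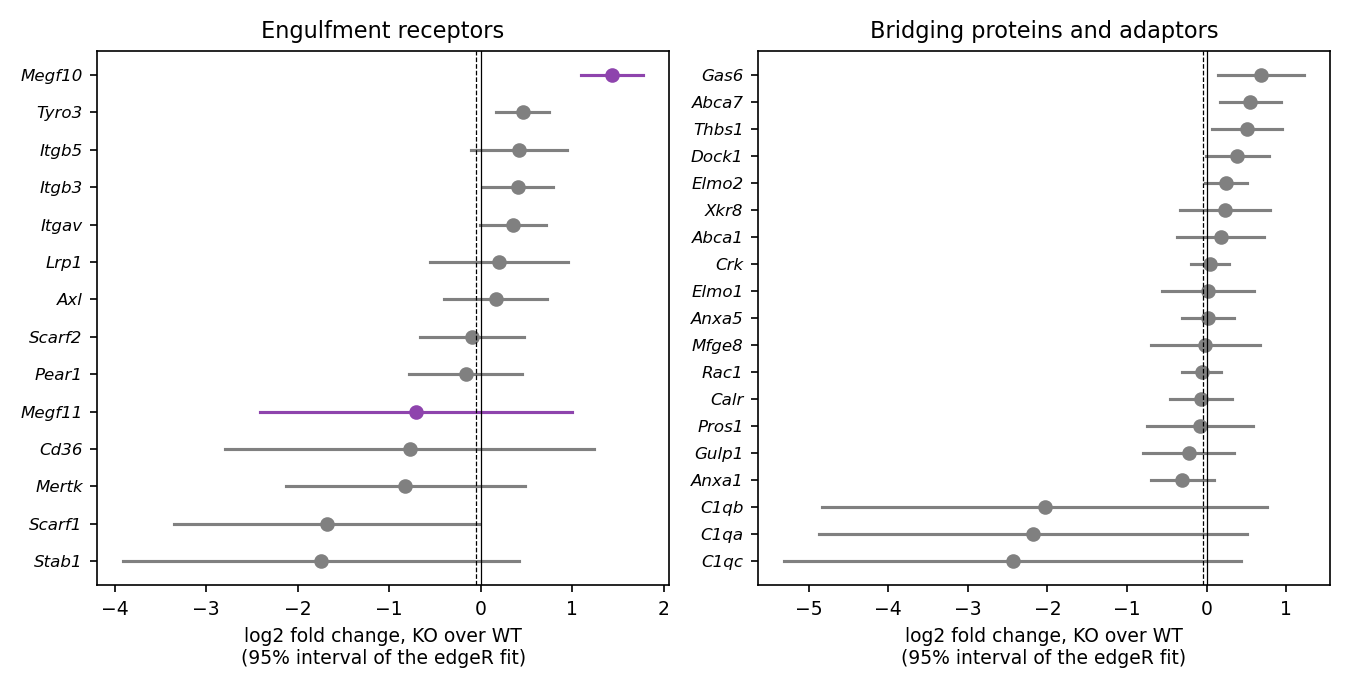
log2 fold change, KO over WT, with the 95% interval of the edgeR fit for 14 tested engulfment receptors (left) and 19 bridging proteins and adaptors (right); the dashed line is the median of all genes tested. Megf10 at 1.43 lies above every other gene shown, Tyro3 and Gas6 follow in their panels at 0.46 and 0.68, and the C1q chains have the widest intervals.

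Other proteins with EGF-like repeats, such as fibulins, fibrillins and latent TGF-beta binding proteins, showed one DESeq2 call. Ltbp3, which holds latent TGF-beta in the matrix, averaged 978.6 ± 62.9 CPM in KO organoids, against 717.8 ± 95.9 CPM in WT ones (SD, n = 3 each), a log2 fold change of 0.45 ± 0.14 (SE, adjusted p 0.169 in edgeR and 0.0326 in DESeq2). Its relative Ltbp1 was at 0.37 ± 0.11, the fibulin gene Fbln5 at 0.83 ± 0.33 and the matrix gene Sned1 at −0.68 ± 0.24, and these 3 passed in neither tool. Of 33 listed genes 25 were tested, of which 0 passed in edgeR and 1 was higher and 0 lower in DESeq2 (4.13% and 3.53% of all genes). The KO libraries lay above all WT libraries for 3 of the 25 (14.2% of all genes) and below them for 0 (14.6%). The median was 0.14 and ranged between −0.07 (WT replicate 1 left out) and 0.42 (WT replicate 3 left out).

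The cells in which MEGF10 is best known were close to absent by their markers. Of 6 markers of skeletal muscle and its satellite cells, 5 were in the table, and they summed to 1.87 to 5.60 CPM in KO organoids, against 2.32 to 4.41 CPM in WT organoids. The satellite cell gene Pax7 had 0, 0 and 1 counts in KO and 0, 0 and 0 in WT libraries. Of the glial markers, the astrocyte genes Gfap and Aqp4 were under 1 CPM in every library. The glial sum was nevertheless 261 to 309 CPM in KO organoids, against 154 to 250.5 CPM in WT organoids, and it consisted almost wholly of Sox10, a transcription factor gene that mammary epithelium is also known to express. Sox10 had 302.8, 258.3 and 256.2 CPM in KO organoids, against 150.0, 246.5 and 211.6 CPM in WT replicates 1 to 3, and its adjusted p was 0.267 in edgeR and did not pass.

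The epithelial markers of the labelled cell type were present. Luminal markers (11 of 11 in the table) summed to 3834 to 3992 CPM in KO organoids, against 4037 to 4539 CPM in WT, and basal and myoepithelial markers (8 of 8) to 320 to 368 CPM in KO organoids, against 349 to 427 CPM in WT. Single markers within these lists passed in DESeq2 in both directions, and none did in edgeR. The luminal transcription factor gene Gata3 was higher in KO (log2 fold change 0.53 ± 0.09, adjusted p 1.44e-05 in DESeq2 and 0.0833 in edgeR). The keratin gene Krt19 was lower (−0.89 ± 0.21, 0.00496 in DESeq2 and 0.107 in edgeR), and so was Cnn1, a calponin gene of myoepithelium (−1.19 ± 0.23, 0.00133 in DESeq2 and 0.0867 in edgeR). Fibroblast markers (6 of 6) summed to 8481 to 9936 CPM in KO and to 2294, 9176 and 12690 CPM in WT replicates 1 to 3, so they were lowest in the WT library in which Megf10 and Megf6 were lowest. Pericyte markers (4 of 4) summed to 417 to 475.5 CPM in KO organoids, against 227 to 520 CPM in WT, again with WT replicate 1 lowest. Endothelial markers (5 of 5) summed to 4.30 to 5.92 CPM in KO organoids, against 4.88 to 8.50 CPM in WT, and adipocyte markers (4 of 4) to 15.3 to 18.2 CPM in KO organoids, against 5.10 to 37.5 CPM in WT. The adipocyte sum was almost wholly Fabp4, while Adipoq, Plin1 and Cidec had between 0 and 5 counts in each library and were too low to test. The log2 fold change of Megf10 was 1.43 with all libraries and 1.32 without WT replicate 1. The part of these markers in either value was not tested. In bulk RNA, fewer cells of a type and less RNA per cell cannot be told apart.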

How the data were processed

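Poly(A) RNA of mammary organoids was sequenced. Random hexamers primed the cDNA and no strand-marking step is named, per the labels' protocols. CASAVA, STAR and mm10 appear in the submitters' processing notes; for counting, neither tool nor annotation is given in the sources used here. The authors deposited raw read counts per gene, FPKM, a mean normalized signal per group, and their own log2 fold change, p-value and adjusted p-value, per the file headers. FPKM equalled counts scaled by gene length and by column total (largest relative difference 2.13e-07). From the deposited counts, edgeR 4.0.16 (R 4.3.3) tested KO against WT (TMM, filterByExpr with a minimum count of 10 and total of 15, robust quasi-likelihood F test, Benjamini-Hochberg over all genes tested). Alternatives were DESeq2 1.42.0 on the same genes, other scalings and filters, a replicate block, each library left out, and limma 3.58.1 on log2(FPKM + 1) and log2(FPKM + 0.1), which understates changes of low genes.

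Fold changes in the report are those of the edgeR fit, also where a DESeq2 adjusted p stands beside them. The functions were tested on simulated data with the same spread set for all genes and libraries. That check therefore does not cover the uneven spread of these libraries. No pair of libraries matched within sampling noise (chi-square per gene of 14.3 to 146). Pairs of KO libraries gave 14.3 to 22.6 and pairs of WT libraries gave 76.4 to 146. Totals of 18292722 to 29203634 counts set the precision, and no molecular identifiers are named, so counting errors cover counting only. Symbols of 24 genes turned into dates were restored by identifier. The members and lists were chosen with earlier results of these data known. Named genes are the 4 members, Ezh2, genes of the 4 family and pathway lists passing edgeR or DESeq2 or among the 4 smallest p of a list, and the 6 genes most like Megf10; Pear1, Slit1, Axl, Mertk, Stab1, Cd36, Gulp1, C1qa, Rps29 and the marker genes were named after their values were seen. A gene of the MEGF-numbered list is counted but not reported singly here.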

Additional observations from a re-analysis of the deposited data

How the results depend on the processing

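Megf10, Megf6, Megf9 and Ezh2 kept their direction under all 15 alternatives, and Megf11 under the 13 that could include it (it fell under the filter of the FPKM fits). The log2 fold change of Megf10 was 1.03 on log2(FPKM + 1), lower by construction, and ran from 1.32 to 1.51 when each library was left out in turn. Megf6 passed the threshold in DESeq2 (0.79) and without WT replicate 2 (0.87), and leaving out libraries gave 0.68 to 0.87. Leaving out libraries gave 0.35 to 0.69 for Megf9 and −1.61 to −0.35 for Megf11. Ezh2 passed in DESeq2 (−1.47), with no filter on low counts (−1.46) and without WT replicate 2 (−1.33, adjusted p 0.0455 in edgeR), and ran from −1.63 to −1.33 with libraries left out. The number of genes called was 564 higher and 482 lower in DESeq2, 68 higher and 63 lower with no filter, and 1 higher and 1 lower in either limma fit. It ran from 0 to 100 higher and from 0 to 116 lower with libraries left out: without WT replicate 1 it was 13 higher and 25 lower, and without WT replicate 2 it was 100 higher and 116 lower. The causes were not tested. The list medians ran from 0.23 to 0.66 (MEGF-numbered genes), −0.080 to 0.33 (engulfment receptors), −0.10 to 0.17 (bridging proteins and adaptors) and −0.07 to 0.42 (other EGF-repeat proteins) with libraries left out. The MEGF-numbered and receptor lists include Megf10 here, which was chosen for its difference. TMM-scaled sizes in place of column totals gave the same order per length in every library, and 5 or 6 of the 6 genes most like Megf10 were shared under the other pseudocounts.

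Replicate numbers were not shown to pair the samples: same-numbered libraries had correlations of −0.0934, 0.299 and 0.117 between their deviations across genes. The 0.299 of the replicates numbered 2 was the highest between the genotypes. By the same correlation, KO replicate 3 was nearer to WT replicate 1 (0.291) than to WT replicate 3. With the number as a replicate block 0 genes were called, and the log2 fold changes were 1.44 for Megf10, 0.78 for Megf6, 0.51 for Megf9 and −0.75 for Megf11. Megf11 had 61 KO and 69 WT counts in all, and its libraries differed by more than counting error.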
